A study of Ictalurus furcatus with 6 samples.

Results

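The genes of fatty acid oxidation and of fatty acid elongation and desaturation were examined in blue catfish sperm that had been either fresh-frozen or cryopreserved. Members were the features of the deposited expression table whose gene name begins with the symbol of an acyl-CoA synthetase, fatty acid transport protein, carnitine palmitoyltransferase, acyl-CoA dehydrogenase or oxidase, enoyl-CoA hydratase or isomerase, hydroxyacyl-CoA dehydrogenase, thiolase, electron transfer flavoprotein, *elovl* elongase, or *fads* or *scd* desaturase. Of 27416 features, 75 met this rule, and all 75 passed the filter on low values described below. Of these names, 64 came from the Ensembl name in the table and 11 only from its eggNOG orthology name. The 11 were both *ACSL1* features, *ACSS1*, *SLC27A2* AUIFUG00000030026, *CPT1C*, *ACADM*, *ECH1*, *ETFDH*, *ELOVL2*, *ELOVL4* AUIFUG00000020479 and *ELOVL6*. The rule read letters alone, so it also took *etfbkmt*, a methyltransferase that modifies ETFB, and the acetyl-CoA synthetases *acss*.

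Sperm were taken from dissected testes of males of the D&B strain. Fresh-frozen sperm were flash-frozen in liquid nitrogen with no cryoprotectant named, and cryopreserved sperm were diluted in Hank's balanced salt solution with methanol, filled into straws and cooled at a controlled rate. Both kinds were thawed in the same way before RNA extraction. The study describes extraction of sperm from the remaining testis tissue for the cryopreserved kind, and storage differed too. The comparison thus joins preparation and storage with the way of freezing, and these cannot be told apart here. Fresh-frozen sperm gave 2 samples in the table (F2 and F3) and cryopreserved sperm gave 3 (C2, C3 and C5), where the number names the male. C2 was measured in 2 technical runs, which were averaged, and fresh-frozen sperm of the male numbered 5 were not analysed here. No sample gives sperm that had never been frozen, and samples of whole testicular sperm can hold other cells of the testis.

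In β-oxidation, a fatty acid is first taken up and joined to coenzyme A, passed into the mitochondrion as an acylcarnitine, and then shortened in repeated rounds by a dehydrogenase, a hydratase, a hydroxyacyl dehydrogenase and a thiolase. The electron transfer flavoprotein carries the electrons of the dehydrogenase step to ubiquinone. Very long chains are shortened in peroxisomes by acyl-CoA oxidases, whereas elongases of the endoplasmic reticulum lengthen chains and desaturases add double bonds, which set the fluidity of membranes.

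Values were treated as read counts scaled to a common library total (CPM), although whole reads could not be recovered from them. Differences are cryopreserved minus fresh-frozen in log2(CPM + 1), a scale on which changes of low genes are understated. The CPM are not divided by gene length. Where CPM of different genes are set side by side, they are shares of reads and not transcript levels. A DEG was a feature with a limma FDR below 0.05 and a log2 fold change beyond 2 in either direction among 27255 features tested. F2 and F3 had median CPM of 15.7 and 15.6 over all features, C3 had 14.99, the C2 runs had 9.60 and 9.55, and C5 had 2.03. Low values lay near evenly spaced steps but, in all samples other than F2, mostly off whole multiples of them. The depth of each library could therefore not be read from these values. The study lists more filtered reads for F2 and F3 than for C2, C3 or C5, and the fewest for C3. Depth thus differed along with the way of freezing, and its part was not tested. C5 had the lowest median and 13 members under 1 CPM. The median log2 fold change over all features tested was −1.02, and only 25% of features were higher in cryopreserved sperm, so the members are set beside these values throughout. Of 13 listed markers of sperm and late germ cells, 6 were upregulated DEGs, where 1.54% of all features were. In all, 10 were higher in every cryopreserved sample than in both fresh-frozen ones (76.9%, against 13.6% of all features). *tekt3* and *dnah1* were lower in every one (15.4%, against 41.7%). The 13 markers summed to 752 and 785 CPM in F2 and F3, against 6627 in C2, 3595 in C3 and 12554 in C5. *tekt1* alone was at 98.0 and 104 CPM in F2 and F3 and at 2526, 1280 and 5292 CPM in C2, C3 and C5.

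Of the 75 members, 2 were upregulated DEGs in cryopreserved sperm and 0 were downregulated DEGs, against 1.54% and 0% of all features tested. The upregulated members were an *ACSL1* feature and *echs1*, the short-chain enoyl-CoA hydratase of the β-oxidation round. The *ACSL1* name, that of a long-chain acyl-CoA synthetase that activates fatty acids, came from orthology only. At an unadjusted limma p below 0.05, 7 members were higher, against 6.89% of all features, and 6 were lower, against 11.3%. Without a test, 18 members lay higher in all 3 cryopreserved samples than in both fresh-frozen samples, which is 24% of the members against 13.6% of all features, and 29 lay lower in all 3, which is 38.7% against 41.7%. The members' median log2 fold change was −0.77, and 22 of 75 had a positive value. The members' summed level was 3327 and 3248 CPM in F2 and F3, against 3789 in C2, 3466 in C3 and 4985 in C5. The groups of these sums did not overlap, although most single members were lower in cryopreserved sperm as deposited. C3 lay only little above F2, and a few high members carry much of the sums. The largest in C5 were *acat1* (860 CPM) and *elovl1b* (729 CPM).

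The direction of the median depended on the scaling. It was 0.38 after TMM rescaling, 0.28 after centring each library on its median and 0.02 after quantile normalization, and the median over all features moved with it, to −0.16, 0.03 and −0.22. Without C5 the members' median was −0.31, beside −0.53 for all features. The members' median exceeded that of all features by 0.25 as deposited and by 0.54, 0.25 and 0.24 under these 3 scalings. This difference also depended on the pseudocount, and with 0.1 it was 0.59. By group, it then went from −0.29 to 0.04 for peroxisomal oxidation, from −0.40 to −0.12 for desaturases and from −0.25 to −0.53 for elongases. After TMM rescaling 29 members lay above and 10 below, against 24% and 17.8% of all features.

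**Figure D1:**
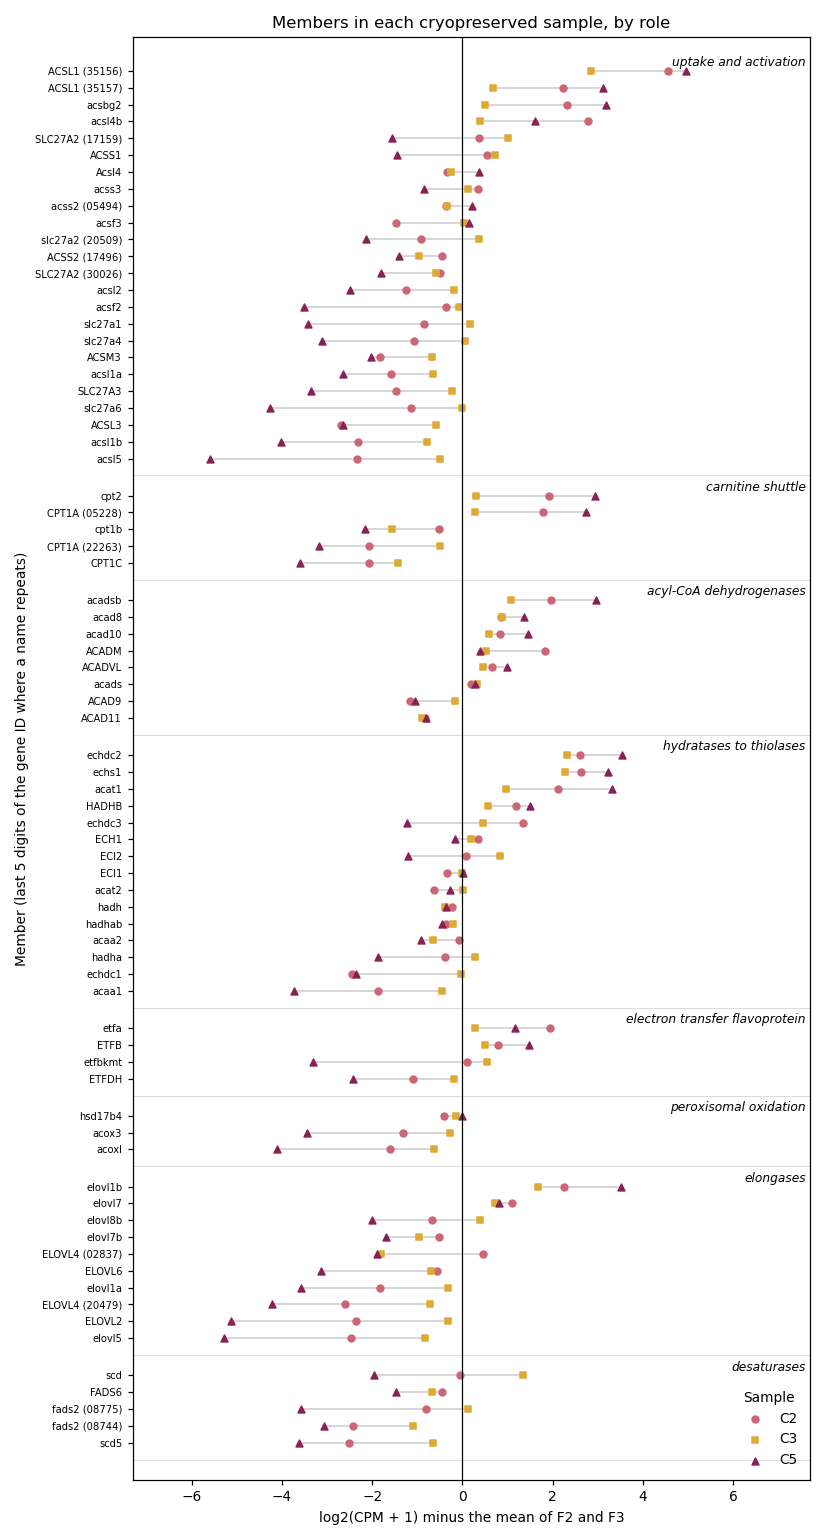
The log2(CPM + 1) of each member shown (1 is left out of the plot) in C2 (circles), C3 (squares) and C5 (triangles) minus the mean of F2 and F3, with grey lines spanning the 3 samples and members grouped by role. Over all 75 members as deposited, 18 (24%, against 13.6% of all features) have all 3 samples above both fresh-frozen samples. Another 29 (38.7%, against 41.7%) have all 3 below, and C5 is the farthest from 0 in 58 members.

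The 3 cryopreserved samples differed in how far they lay from the fresh-frozen mean. The members changed by a median of −0.40 (C2), −0.01 (C3) and −1.45 (C5), beside −0.74, −0.21 and −1.93 over all features. C5 showed the largest absolute change in 58 members, and C3 showed the smallest in 54. Of the 18 members that lay above, 13 (72.2%) had C3 lowest and C5 highest, as did 57.3% of all features that lay above. Of the 29 that lay below, 21 (72.4%) had C3 highest and C5 lowest, beside 78.5% of all such features. Leaving out C3 gave 9 upregulated and 15 downregulated members, against 6.77% and 25.6% of features, whereas leaving out C2 gave 0 in each direction. In these bulk samples fewer cells of a type and less RNA per cell cannot be told apart. The members were all measured in the same samples and are not replicates of one another. For any one member, an exact two-sided permutation of 2 samples against 3 has 0.1 as its smallest p.

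Uptake and activation were split, with 1 upregulated DEG (1.54% of all features) and a median log2 fold change of −0.95 over 24 members. This median moved to 0.10 after median centring and stayed below 0 after TMM rescaling (−0.01) and quantile normalization (−0.11). Without C5 it was −0.43. The 24 members include 7 fatty acid transport proteins. The 17 activating synthetases alone had a median of −0.43 as deposited, with 17.6% above and 47.1% below, against 13.6% and 41.7% of all features. The *ACSL1* feature AUIFUG00000035156 was at 6.54 and 14.3 CPM in F2 and F3 and at 251, 76.8 and 331 CPM in C2, C3 and C5, respectively. Every cryopreserved value lay above both fresh-frozen ones, and C3 was the lowest of the 3. The log2 fold change was 4.12 ± 0.82 (SE, n = 2 and 3; limma FDR = 0.0301). Over the alternatives its limma FDR ran from 5.048e-06 with the replicate block to 0.449 without C2, and the call was also lost without F2 (limma FDR = 0.0843), with a pseudocount of 0.1 (0.0783), after median centring (0.141) and under limma's constant prior (0.121).

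A neighbouring identifier with the same name, *ACSL1* AUIFUG00000035157, was at 31.3 and 41.1 CPM in fresh-frozen sperm and at 172, 57.8 and 320 CPM in C2, C3 and C5, respectively. It lay higher in all 3 cryopreserved samples but did not pass the test, with a log2 fold change of 2.01 ± 0.78 (limma FDR = 0.265). This gene and the next were chosen after their values were seen. The bubblegum-type synthetase *acsbg2*, which activates long-chain fatty acids, was at 29.5 and 35.1 CPM in F2 and F3 and at 164, 45.7 and 299 CPM in C2, C3 and C5 (log2 fold change 1.99 ± 0.82, limma FDR = 0.265). These were the 3 members of the group that lay above in every cryopreserved sample, which is 12.5% against 13.6% of all features. Another 9 members lay below, which is 37.5% against 41.7%.

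Most other members of the long-chain synthetase family had negative fold changes as deposited. *acsl1b*, another long-chain synthetase, was at 219 and 228 CPM in F2 and F3 and at 44.1, 130 and 12.9 CPM in C2, C3 and C5 (log2 fold change −2.37 ± 0.87, limma FDR = 0.265). Its groups did not overlap, in the opposite direction to the *ACSL1* features. *acsl5* had the lowest fold change of the group, from 77.6 and 69.9 CPM to 13.8, 51.8 and 0.539 CPM (−2.81 ± 1.29, limma FDR = 0.265). *acsl1a* (−1.63), *acsl2* (−1.31) and *ACSL3* (−1.97) also lay lower in every cryopreserved sample, and *Acsl4* (−0.07) and *acsl4b* (1.60) overlapped. Whether reads were split between features that share a name, such as the pair named *ACSL1*, is not given in the sources used here, and fold changes of such pairs are uncertain to that extent.

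The 7 fatty acid transport proteins of the *slc27a* family, which carry fatty acids across membranes and activate very long chains, had log2 fold changes from −1.81 to −0.06 and a median of −1.37. The family median stayed negative under each scaling tried (−0.25 with TMM, −0.32 with median centring and −0.37 with quantile normalization). The medians of all features under these scalings were −0.16, 0.03 and −0.22. Without C5 the family median was −0.51 and without C3 it was −2.08, beside −0.53 and −1.35 over all features. Only *SLC27A3* lay lower in all 3 cryopreserved samples (14.3%, against 41.7% of all features). *slc27a6*, the member of the family with the lowest fold change, was at 41.9 and 41.1 CPM in F2 and F3 and at 18.2, 41.3 and 1.2 CPM in C2, C3 and C5. By sample, the family median stood at −0.92 (C2), 0.05 (C3) and −3.10 (C5).

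**Figure D2:**
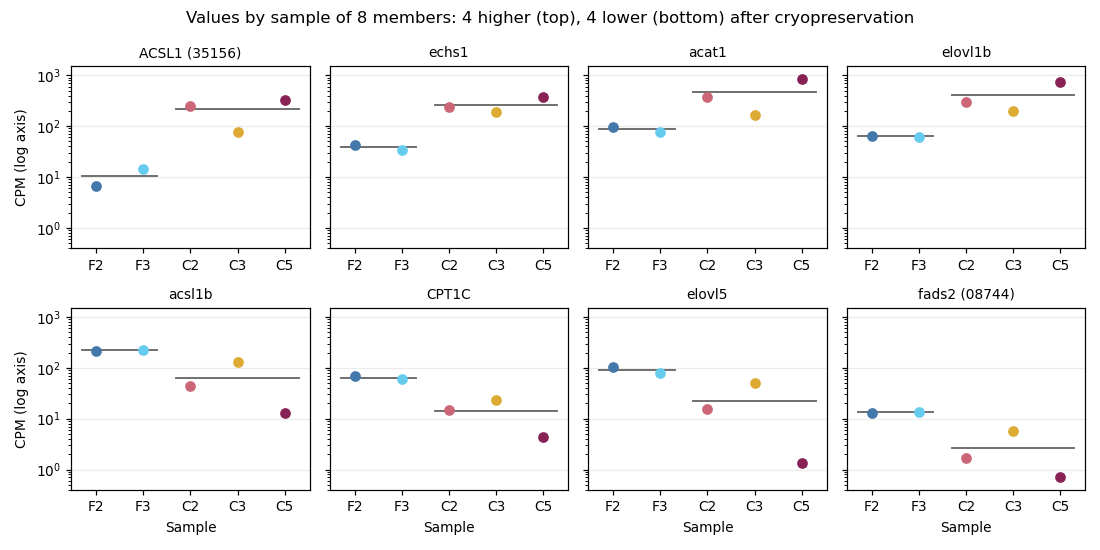
CPM on a log axis in F2, F3, C2, C3 and C5 for 4 members that lay above (*ACSL1* AUIFUG00000035156, *echs1*, *acat1*, *elovl1b*) and 4 that lay below (*acsl1b*, *CPT1C*, *elovl5*, *fads2* AUIFUG00000008744) in every cryopreserved sample; horizontal lines are group means and each point is 1 sample. In C5 the upper row lies between 331 and 860 CPM and the lower row between 0.721 and 12.9 CPM, while C3 stays nearest to the fresh-frozen values.

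The carnitine shuttle held 5 members and no DEG, with 1 above (20%, against 13.6% of all features) and 3 below (60%, against 41.7%). Its median log2 fold change of −1.41 stayed negative under every scaling tried. Relative to all features it was −0.39 as deposited and −0.28, −0.39 and −0.09 under TMM rescaling, median centring and quantile normalization. *CPT1A*, the outer-membrane transferase that makes acylcarnitine and is the gate to mitochondrial oxidation, was the name of 2 features whose fold changes had opposite signs. *CPT1A* AUIFUG00000022263 was at 125 and 140 CPM in F2 and F3 and at 30.7, 93.6 and 13.7 CPM in C2, C3 and C5 (log2 fold change −1.91 ± 0.85, limma FDR = 0.265). *CPT1A* AUIFUG00000005228 was at 15.7 and 20.8 CPM in F2 and F3 and at 64.9, 22.2 and 126 CPM in C2, C3 and C5 (1.60 ± 0.90, limma FDR = 0.278). Neither pair of groups overlapped, but in C3 the second feature exceeded F3 by little.

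*CPT1C*, the paralogue expressed in mammals mainly in brain, was at 68.9 and 60.3 CPM in F2 and F3 and at 14.7, 23.3 and 4.37 CPM in C2, C3 and C5 (−2.37 ± 0.93, limma FDR = 0.265). Its name came from orthology only. The muscle-type *cpt1b* was low throughout, at 8.37 and 9.58 CPM against 5.98, 2.39 and 1.21 CPM (−1.41 ± 0.93, limma FDR = 0.321). The inner-membrane transferase *cpt2*, which turns acylcarnitine back into acyl-CoA, was at 2.17 and 4.23 CPM in F2 and F3 and at 14.4, 3.99 and 30.4 CPM in C2, C3 and C5, respectively. C3 lay between the fresh-frozen samples, and the log2 fold change of 1.72 ± 1.06 did not pass (limma FDR = 0.301).

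The acyl-CoA dehydrogenases, which take the first oxidation step, were mostly higher in cryopreserved sperm, although none was a DEG. Of 8 members, 6 lay above in every cryopreserved sample (75%, against 13.6% of all features) and 1 lay below (12.5%, against 41.7%). Their median log2 fold change was 0.81 as deposited, and it was 1.98, 1.86 and 1.35 under TMM rescaling, median centring and quantile normalization. Relative to the median of all features it was 1.83 as deposited and between 1.17 and 2.31 with 1 cryopreserved sample left out, the lowest being without C5. Unlike most groups, its median changed little between samples, at 0.74 in C2, 0.49 in C3 and 0.69 in C5.

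The very long-chain enzyme *ACADVL* was at 64.9 and 71.1 CPM in F2 and F3 and at 108, 94.1 and 136 CPM in C2, C3 and C5 (log2 fold change 0.71 ± 0.61, limma FDR = 0.429). *acadsb*, which acts on short branched chains in isoleucine breakdown, had the highest fold change of the group, from 5.83 and 6.30 CPM to 26.5, 13.8 and 53.8 CPM (2.00 ± 0.96, limma FDR = 0.265). The others that lay above were the medium-chain *ACADM* (0.91), the short-chain *acads* (0.27), *acad8* of valine breakdown (1.03) and *acad10* (0.96). *ACADM* was the one with C2 far above the rest, at 103 CPM beside 41.1 in C3, 37.7 in C5 and 27.3 and 29.7 in F2 and F3. *ACAD11* lay below, at 49.2 and 28.7 CPM against 20.8, 19.8 and 21.2 CPM (−0.84 ± 0.82, limma FDR = 0.484), and its fold change turned positive after TMM rescaling (0.32) and median centring (0.21). *ACAD9*, known for its part in assembling complex I, overlapped (−0.79).

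The later steps of the round, from hydratases to thiolases, held 15 members with 1 upregulated DEG (1.54% of all features), 4 above (26.7%, against 13.6%) and 3 below (20%, against 41.7%). Their median of −0.11 turned to 1.03, 0.94 and 0.56 under TMM rescaling, median centring and quantile normalization, and ran from −0.29 without C3 to −0.05 without C5. *echs1* was at 43.4 and 33.9 CPM in F2 and F3 and at 242, 189 and 369 CPM in C2, C3 and C5, respectively. All 3 cryopreserved samples stood clear of both fresh-frozen ones, C3 included, and the log2 fold change was 2.71 ± 0.59 (SE, n = 2 and 3; limma FDR = 0.0450). Over the alternatives its limma FDR ran from 0.000615 with the replicate block to 0.459 without F3, and the call was lost without F2 (limma FDR = 0.213), without F3 and without C2 (limma FDR = 0.449). It was also lost, by limma FDR, with a pseudocount of 0.1 (0.0787) or 0.5 (0.0559), a filter at 5 CPM (0.0566), TMM rescaling (0.0550), median centring (0.159) and a constant prior (0.207).

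*echdc2*, an enoyl-CoA hydratase-domain protein, had a higher fold change than *echs1* but at low CPM. It went from 6.19 and 5.35 CPM in F2 and F3 to 40.0, 32.7 and 77.1 CPM in C2, C3 and C5 (2.82 ± 0.88, limma FDR = 0.203). It became an upregulated DEG with the male as a block (limma FDR = 0.0424), in a range over the alternatives of 0.0138 to 0.718. That fit gave 3 upregulated and 0 downregulated members, against 4.17% and 0.44% of all features. *acat1*, the mitochondrial acetoacetyl-CoA thiolase of ketone body and isoleucine metabolism, was at 97.7 and 75.9 CPM in fresh-frozen sperm and at 379, 168 and 860 CPM in C2, C3 and C5 (2.13 ± 0.65, limma FDR = 0.185). With *echs1* these were the members of this step whose cryopreserved values lay farthest above the fresh-frozen ones.

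The mitochondrial trifunctional protein, which carries out the last steps for long chains, is built from HADHA and HADHB subunits. *HADHB* was at 89.3 and 101 CPM in F2 and F3 and at 216, 140 and 270 CPM in C2, C3 and C5 (1.07 ± 0.55, limma FDR = 0.268). *hadha* was at 80.5 and 91.9 CPM against 65.5, 105 and 22.7 CPM (−0.66 ± 0.78, limma FDR = 0.562), with C3 above and C5 below the fresh-frozen samples. *hadhab*, the other alpha-subunit feature, was at 99.1 and 88.1 CPM against 72.2, 81.1 and 68.1 CPM (−0.34 ± 0.62, limma FDR = 0.710). The negative sign of *hadha* turned under TMM rescaling and median centring, and that of *hadhab* also under quantile normalization, while *HADHB* stayed positive under all of them. In the reference annotation of this species the genes *hadhaa* and *hadhb* are next to each other among protein-coding genes. Whether *hadhaa* corresponds to *hadha* or *hadhab* here was not determined.

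The short-chain hydroxyacyl dehydrogenase *hadh* was at 31.0 and 37.6 CPM in F2 and F3 and at 29.1, 25.8 and 26.5 CPM in C2, C3 and C5 (−0.32 ± 0.79, limma FDR = 0.785), a sign that turned under each of the 3 scalings. *acaa1*, the peroxisomal thiolase, was the lowest of this step, from 109 and 98.9 CPM to 27.5, 75.4 and 6.86 CPM (−2.02 ± 0.96, limma FDR = 0.265). Its mitochondrial counterpart *acaa2* overlapped between groups (−0.55). The remaining members, *acat2*, *ECH1*, *ECI1*, *ECI2*, *echdc1* and *echdc3*, overlapped as well, with log2 fold changes from −1.61 to 0.19.

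The electron transfer flavoprotein subunits and the enzyme that takes over their electrons had fold changes of opposite sign as deposited, and none passed the test. *etfa* was at 22.6 and 27.6 CPM in F2 and F3 and at 98.0, 30.5 and 56.9 CPM in C2, C3 and C5 (1.12 ± 0.81, limma FDR = 0.352). *ETFB* was at 68.5 and 74.1 CPM against 124, 101 and 201 CPM (0.93 ± 0.61, limma FDR = 0.321). Both subunits lay above in every cryopreserved sample (50% of the group's 4 members, against 13.6% of all features). *ETFDH*, the ubiquinone oxidoreductase of the inner membrane, was at 126 and 114 CPM in F2 and F3 and at 55.3, 106 and 21.7 CPM in C2, C3 and C5 (−1.23 ± 0.77, limma FDR = 0.305). The name *ETFDH* came from orthology only. The methyltransferase *etfbkmt* overlapped and was listed at 0 in C5.

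**Figure D3:**
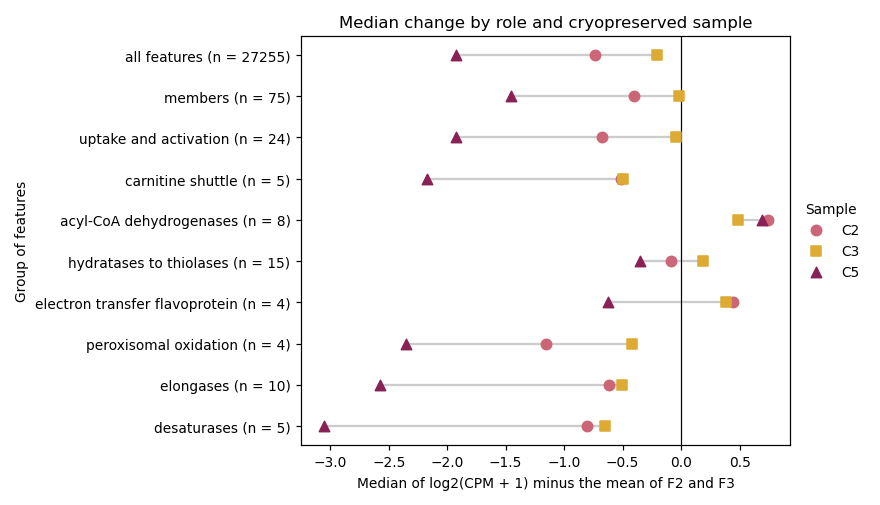
Median difference of log2(CPM + 1) from the mean of F2 and F3 in C2 (circles), C3 (squares) and C5 (triangles), for all features, all members and each role group, with the number of features in brackets. As deposited the acyl-CoA dehydrogenases are the one group above 0 in all 3 samples (0.74, 0.49 and 0.69), while the desaturases reach −3.06 in C5 beside −1.93 for all features.

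Across the 27 members grouped as dehydrogenases, hydratases to thiolases and flavoprotein, 12 lay above and 5 below, and the median log2 fold change was 0.12 as deposited. The groups follow gene names, so that they also hold the peroxisomal *acaa1*, the cytosolic *acat2* and *echdc1*, and *etfbkmt*. The counts are 44.4% and 18.5%, beside 13.6% and 41.7% of all features. The median exceeded that of all features by 1.14 as deposited and by 1.46, 1.14 and 1.10 under TMM rescaling, median centring and quantile normalization, and by 0.85 without C5. Their median change was 0.20 in C2, 0.33 for C3 and −0.17 for C5, whereas their summed level was 2015, 1665 and 2586 CPM there, beside 1329 and 1269 CPM in F2 and F3. The summed sperm and late germ cell markers were also lowest in C3 and highest in C5 among the cryopreserved samples, and their part in the members' levels was not tested.

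Peroxisomal oxidation had 4 members and no DEG, and all 4 lay lower in every cryopreserved sample as deposited, where 41.7% of all features did. The count below was 1 after TMM rescaling (17.8% of all features), 2 after median centring (24.4%) and 3 after quantile normalization (29.1%). The group median was −1.31, and −0.79 without C5. The oxidase-like *acoxl* was at 39.3 and 40.2 CPM in F2 and F3 and at 12.5, 25.5 and 1.36 CPM in C2, C3 and C5 (−2.11 ± 1.11, limma FDR = 0.270). *hsd17b4*, the bifunctional enzyme that follows the oxidase, was close to level, at 145 and 147 CPM against 110, 131 and 144 CPM (−0.19 ± 0.54, limma FDR = 0.813), and its sign turned under TMM rescaling (0.998) and median centring (0.86). *acox3*, which acts on branched chains, had a log2 fold change of −1.69.

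The 10 elongases included 2 that lay above (20%, against 13.6% of all features) and 5 that lay below (50%, against 41.7%). Their median log2 fold change of −1.27 stayed negative under each scaling tried and was −0.71 without C5. Relative to all features it was −0.25 as deposited and −0.18 without C5. Under TMM rescaling, median centring and quantile normalization that difference was −0.37, −0.25 and −0.08. *elovl1b*, a paralogue of the elongase of saturated very long chains, was at 64.1 and 61.9 CPM in F2 and F3 and at 302, 203 and 729 CPM in C2, C3 and C5, respectively. The groups stood well apart, and the log2 fold change of 2.47 ± 0.61 missed the threshold (limma FDR = 0.0752, in a range over the alternatives of 0.000435 to 0.449). *elovl1a*, its named partner, was at 44.8 and 49.6 CPM against 12.5, 37.5 and 3.03 CPM (−1.91, chosen after its values were seen).

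*elovl5*, which lengthens polyunsaturated chains, had the lowest log2 fold change of all members. It was at 104 and 79.7 CPM in F2 and F3 and at 15.7, 51.1 and 1.36 CPM in C2, C3 and C5 (−2.86 ± 1.18, limma FDR = 0.265). *ELOVL2*, which acts on the longer polyunsaturated chains, had a log2 fold change of −2.60, and the *ELOVL4* feature AUIFUG00000020479 had −2.51. The other *ELOVL4* feature, AUIFUG00000002837, was low and overlapped, at 2.54 and 3.27 CPM in F2 and F3 and at 4.32, 0.106 and 0.0537 CPM in the cryopreserved samples. *ELOVL6*, which lengthens palmitate, had −1.46, and *elovl7* had 0.88 with all 3 cryopreserved samples above.

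Of the 5 desaturases, 0 lay above (against 13.6% of all features) and 3 lay below (60%, against 41.7%). Their median log2 fold change was −1.42 as deposited and −0.32, −0.37 and −0.41 under TMM rescaling, median centring and quantile normalization. Without C5 it was −0.56, and its difference from the median of all features went from −0.40 to −0.02. *fads2* encodes the front-end desaturase that starts the synthesis of highly unsaturated fatty acids, and 2 features carried its name. *fads2* AUIFUG00000008744 was at 13.1 and 13.5 CPM in F2 and F3 and at 1.66, 5.71 and 0.721 CPM in C2, C3 and C5 (−2.19 ± 0.96, limma FDR = 0.265). *fads2* AUIFUG00000008775 was at 51.4 and 46.03 CPM against 27.5, 52.8 and 3.19 CPM (−1.42 ± 1.09, limma FDR = 0.379), with C3 above both fresh-frozen samples.

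The stearoyl-CoA desaturases make monounsaturated fatty acids. *scd5* was at 17.5 and 22.7 CPM in F2 and F3 and at 2.64, 12.4 and 0.703 CPM in C2, C3 and C5 (−2.26 ± 1.08, limma FDR = 0.265). *scd* differed between the fresh-frozen samples, at 4.72 and 18.1 CPM, and was at 9.0, 25.4 and 1.69 CPM in C2, C3 and C5 (−0.23 ± 1.16, limma FDR = 0.898). The sign of *scd* turned under all 3 scalings, with the male as a block and without F3 or C5. *FADS6* was under 5 CPM in every sample (−0.86).

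Elongases and desaturases together had 2 of 15 members above (13.3%, against 13.6% of all features) and 8 below (53.3%, against 41.7%). Their median of −1.42 was lower than that of all features by 0.40 as deposited, and the gap was 0.34, 0.40 and 0.19 under TMM rescaling, median centring and quantile normalization. It was 0.15 without C5 and 0.69 without C2. In C5 the median change of these 15 members was −3.06 beside −1.93 over all features, and their median level there was 0.900 CPM.

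**Figure D4:**
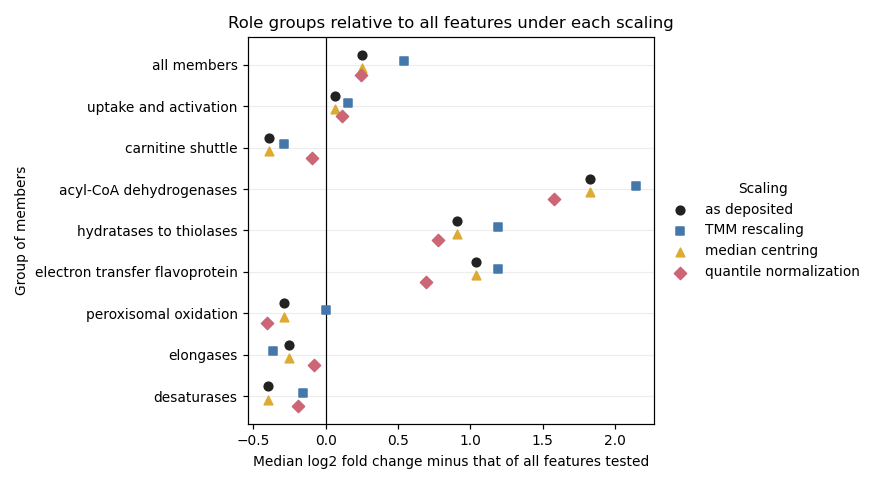
Median log2 fold change of each group of members minus the median of all features tested, as deposited (circles) and after TMM rescaling (squares), median centring (triangles) and quantile normalization (diamonds). Acyl-CoA dehydrogenases lie 1.58 to 2.14 above the median of all features, and elongases and desaturases lie below it under each of the 4 scalings; peroxisomal oxidation lies below it as deposited (−0.29) and at 0.0035 with TMM.

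Related members were also compared inside each library, where a scaling factor cancels apart from the pseudocount. The pairs were chosen after the values were seen, and gene length enters each ratio, so only its change between samples is read. Each pair was written with the member of higher log2 fold change first, so a mean rise of the ratio was fixed by that order. The log2 ratio of *elovl1b* to *elovl1a* was 0.51 and 0.32 in F2 and F3 and 4.49, 2.40 and 7.5 in C2, C3 and C5. The ratio of *CPT1A* AUIFUG00000005228 to AUIFUG00000022263 went from −2.92 and −2.69 to 1.05, −2.03 and 3.11, and that of *ACSL1* AUIFUG00000035156 to *acsl1b* from −4.86 and −3.90 to 2.48, −0.75 and 4.58. In all 3 pairs every cryopreserved ratio exceeded both fresh-frozen ratios, with C3 nearest to them.

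For the subunits, the log2 ratio of *HADHB* to *hadha* was 0.15 and 0.14 in F2 and F3 and 1.71, 0.41 and 3.51 in C2, C3 and C5. The ratio of *ETFB* to *ETFDH* was −0.87 and −0.62 in F2 and F3 and 1.15, −0.07 and 3.15 in C2, C3 and C5. Of 10 name stems that more than 1 member shared, 5 (*acsl1*, *acsl4*, *cpt1a*, *elovl1* and *elovl7*) held members with fold changes of both signs as deposited. Of the 12 pairs computed, 10 had every cryopreserved ratio above both fresh-frozen ones, and *acsl4b* to *Acsl4* and *acaa2* to *acaa1* overlapped. In several pairs the first member lay above and the second below in every cryopreserved sample, which alone sets the ratios apart. Some pairs also share a member, so this count describes the pairs chosen and is not a test.

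**Figure D5:**
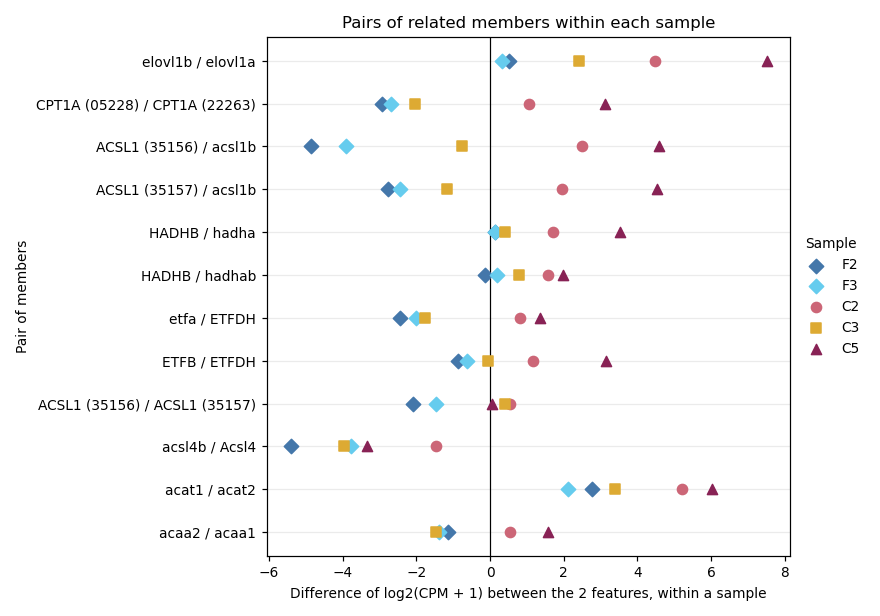
Difference of log2(CPM + 1) between 2 related members within each of F2 and F3 (diamonds), C2 (circles), C3 (squares) and C5 (triangles), for the 12 pairs computed. In 10 of them the 3 cryopreserved samples lie above both fresh-frozen samples, from 0.41 in C3 to 3.51 in C5 for *HADHB* over *hadha*, beside 0.15 and 0.14 in F2 and F3. The member of higher log2 fold change is written first in each pair, so a mean rise is fixed by that order.

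A list of other genes of fatty acid metabolism held 78 features, of which 1 was an upregulated DEG and 0 were downregulated DEGs, against 1.54% and 0% of all features. At an unadjusted limma p below 0.05, 3 were higher and 8 lower, where 6.89% and 11.3% of all features were. Of the listed features 16 lay above (20.5%, against 13.6%) and 31 below (39.7%, against 41.7%), and the median log2 fold change was −0.27. *CD36*, a membrane receptor that takes up long-chain fatty acids, rose from 32.8 and 23.1 CPM in F2 and F3 to 969, 381 and 1795 CPM in C2, C3 and C5 (4.93 ± 0.63, limma FDR = 0.00489). The carnitine acetyltransferase feature *crat* AUIFUG00000007250 was at 38.3 and 40.7 CPM against 375, 141 and 535 CPM (2.92 ± 0.65, limma FDR = 0.0520). The acylcarnitine carrier *slc25a20*, which works between CPT1 and CPT2, had a log2 fold change of 1.42 with all 3 cryopreserved samples above.

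Genes of fatty acid synthesis and elongation on the same list differed in sign. Fatty acid synthase, *fasn*, was at 298 and 372 CPM in F2 and F3 and at 62.0, 218 and 12.2 CPM in C2, C3 and C5 (−2.56 ± 0.96, limma FDR = 0.265). *hsd17b12*, the ketoacyl reductase that serves the elongases, had the lowest fold change of the list, from 169 and 231 CPM to 37.1, 110 and 2.03 CPM (−3.09 ± 1.23, limma FDR = 0.265). The acetyl-CoA carboxylases *acaca* (−0.18) and *acacb* (1.14), the enoyl reductase *tecra* (1.44) and the mitochondrial *mcat* (0.85) overlapped between groups. The genes of this paragraph and *slc25a20* were singled out after their values were seen.

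Markers of other cell types were also read (6 features for earlier germ cells, 3 for Sertoli cells, 3 for Leydig cells, 4 for red blood cells, 3 for leukocytes, 5 for hepatocytes and 6 for muscle). None was a DEG, where 1.54% of all features were upregulated and 0% downregulated DEGs. With calls so rare, their absence among few markers says little about these cells. Hepatocyte markers summed to 30.2 and 28.4 CPM in F2 and F3 and to 22.1, 22.2 and 1.54 CPM in C2, C3 and C5, and Sertoli cell markers to 29.8 and 33.5 against 39.3, 25.2 and 4.24 CPM. Earlier germ cell markers summed to 285 and 248 CPM in F2 and F3 and to 263, 378 and 122 CPM in C2, C3 and C5. Red blood cell markers summed to 161 and 140 CPM against 904, 308 and 113 CPM, highest in C2. Most of each sum was *alas2*, at 127 and 118 CPM against 637, 214 and 83.2 CPM. The other red blood cell markers were mixed. *hbaa1* lay lower in every cryopreserved sample, *epb41b* lay higher in every one, C5 included, and *hbae* overlapped. The leukocyte markers were mixed, *PTPRC* being at 122 and 117 CPM in F2 and F3 against 36.8, 75.5 and 5.52 CPM after cryopreservation, and *lcp1* at 52.5 and 37.4 CPM against 142, 107 and 312 CPM. Leydig cell markers summed to 37.9 and 26.1 CPM in F2 and F3 against 36.6, 28.8 and 10.5 CPM, and muscle markers to 160 and 156 CPM against 202, 166 and 535 CPM. Of the muscle markers, 4 lay lower in every cryopreserved sample (66.7%, against 41.7% of all features) and 2 lay higher (33.3%, against 13.6%). *acta1a* lay higher at 29.9 and 28.0 CPM against 155, 79.0 and 517 CPM. *actc1a* did so at 1.81 and 4.72 CPM against 5.16, 5.37 and 9.08 CPM. The Sertoli marker *inha* and the hepatocyte marker *apoa1b* were listed at 0 in C5. C5 was thus lowest for the summed hepatocyte, Sertoli, Leydig, earlier germ cell and red blood cell markers, and highest for the leukocyte and muscle sums. In C5 *lcp1* (312 CPM) and *acta1a* (517 CPM) made up most of the leukocyte sum (318 CPM) and the muscle sum (535 CPM), respectively. C5 was also lowest for most members that lay below and for the median of all features. The part of these cells in the result was not tested.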

How the data were processed

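Poly(A) RNA of sperm was sequenced by the authors with a directional kit. Per the labels and the study's methods, reads were checked with FastQC 0.11.6, trimmed with Trimmomatic 0.39, mapped to the blue catfish genome with TopHat2 2.1.1 (build not given in the sources used here), counted per gene with HTSeq 1.0 and processed with edgeR. The deposited values are named RPKM. Column totals of 992942 to 997458, and means that rank as the deposited log2 average (logCPM column), led to their treatment as CPM. Low values fell near evenly spaced steps, but 72.6% (F2) to 0.851% (C5) lay within 0.05 of a step of a whole multiple, so whole reads were not recovered, no count test was run and no counting intervals are given. Columns of the authors' own comparison (fold changes and p-values) were not used.

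Log2(CPM + 1) was compared with limma 3.58.1 in R 4.3.3 (trended prior, Benjamini-Hochberg adjustment over the 27255 features whose mean exceeded 1 CPM in either group). The test was checked on simulated data in which all samples had the same depth and, apart from planted changes, the same mean profile. The differences between libraries described above were not part of that check. The C2 runs were averaged (Spearman 0.969 over the members). Sample numbers name males, which gives the pairing: in the males with both samples, 2 and 3, the differences between males had a correlation of −0.02 over all features between the 2 kinds of sperm. The main test has no block. Its p-values rest on the spread between these samples, with 3 residual degrees of freedom. They also rest on a spread borrowed from other features, with 8.59 prior degrees of freedom. TMM factors were computed from the CPM in R. Names blank, "NA" or an identifier in the Ensembl column were taken from the eggNOG column. Of 68 distinct member names, 50 were found in RefSeq for this species (Billie_1.0), used for names and neighbours only. No sequences were used here.

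Members, lists and tests were chosen with earlier results of these data known. Members named were each DEG; the highest and lowest fold change and the highest mean of each role group; and the carnitine transferases, trifunctional and flavoprotein subunits, *hadh*, *hsd17b4*, *scd* and *fads2*. Of the members, 1 is counted but not reported here by itself. Other members are given in shorter form or marked as chosen later. Alternatives changed the pseudocount, filter, scaling, prior, block, C2 run and samples.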

Additional observations from a re-analysis of the deposited data

How the results depend on the processing

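The count of upregulated members was 2 and that of downregulated members 0. The upregulated count was 0 with a pseudocount of 0.1, 1 with 0.5, 1 with a filter at a mean of 5 CPM, 1 with TMM rescaling, 0 with median centring, 5 with quantile normalization and 0 with a constant prior, and it ran from 0 to 9 when each sample was left out in turn. The downregulated count was 1 with quantile normalization (*acsl1b*) and ran from 0 to 15 when each sample was left out. The high ends of both came without C3. Over all features, 421 were upregulated as deposited, 156 with a pseudocount of 0.1, 329 with 0.5, 670 with 5, 302 with the filter at 5 CPM, 550 with TMM, 0 with median centring, 1410 with quantile normalization and 0 with a constant prior, with a range of 0 to 1840 over samples left out. Downregulated features numbered 0 as deposited, 4 with a pseudocount of 5, 100 with quantile normalization, and 2 and 1 with C2 run 1 or run 2 alone, with a range of 0 to 6965 over samples left out.

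With the male as a replicate block, 3 members were upregulated (*ACSL1* AUIFUG00000035156, *echs1* and *echdc2*) and 0 downregulated, beside 1136 and 120 of all features and 2 upregulated features of the other pathway list. That fit has 1 residual degree of freedom and rests on the males with both samples, since C5 has no partner. The block changed no other call among the members.

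Upregulated features of the other pathway list numbered 1 as deposited, 2 with a pseudocount of 5, 0 with median centring, 3 with quantile normalization and 0 with a constant prior, and ran from 0 to 5 over samples left out, where downregulated ones ran from 0 to 13. The members' median log2 fold change was −0.77 as deposited, 0.38 with TMM, 0.28 with median centring and 0.019 with quantile normalization, and it ran from −0.93 to −0.31 over samples left out. The members lying above numbered 18 as deposited, 29 with TMM, 25 with median centring and 26 with quantile normalization. Over all 27255 features tested these counts were 3708, 6543, 5943 and 5538. Members lying below numbered 29, 10, 14 and 17 in the same order, beside 41.7%, 17.8%, 24.4% and 29.1% of all features. The alternatives for the counts above and below and for the pathway list were chosen after seeing the data.

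Over the 29 named members and all settings, the fold change reversed sign in 18 cases, a call was lost in 14 and gained in 19, and 442 cases kept both their sign and their side of the threshold. Only *ACSL1* AUIFUG00000035156 and *echs1* were DEGs as deposited, so every lost call was of these 2. Most cases that kept their side were of members that were not called in either fit. With TMM rescaling the reversed values were 0.73 for *scd*, 0.32 for *ACAD11*, 0.84 for *hadh*, 0.52 for *hadha*, 0.84 for *hadhab* and 0.998 for *hsd17b4*. With median centring they were 0.82 for *scd*, 0.21 for *ACAD11*, 0.73 for *hadh*, 0.39 for *hadha*, 0.71 for *hadhab* and 0.86 for *hsd17b4*. With quantile normalization they were 0.76 for *scd*, 0.41 for *hadh* and 0.0069 for *hadhab*. For *scd* the value was 0.64 with the replicate block, and it ran from −1.10 to 0.64 over samples left out. The cause of these changes was not tested. Only 2 and 3 samples were compared.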
